A study of Mus musculus with 3 samples.

Results

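Cytochrome P450 enzymes of families 2 to 46 were examined in Hepa1c1c7 cells, a mouse hepatoma line, on 3 single-colour (Cy3) Agilent gene expression arrays. The cells had been transfected with a Cd74 vector, a Tmem54 vector or an Empty vector, and each vector has 1 array of total RNA. All cells belong to the same line, and the labels used here give neither the time after transfection nor the share of cells that took up a vector. Cd74 is the invariant chain of MHC class II molecules, which is also a receptor for the cytokine MIF, and Tmem54 is a transmembrane protein. The members were the genes whose name on the array reads Cyp, a family number, a subfamily letter and a gene number, without family 1, and Cyp51 was not included because it has no subfamily letter. This gave 98 of the 24896 named genes of the array, measured by 132 probes, of which 71 members had 1 probe and 27 had more.

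P450 enzymes are haem proteins that insert oxygen into their substrates. Those of the endoplasmic reticulum take their electrons from the reductase Por, and those of mitochondria take them from the reductase Fdxr through the ferredoxin Fdx1. In hepatocytes the enzymes of the Cyp2 and Cyp3 families clear drugs, toxins and steroids, the Cyp4 family hydroxylates fatty acids and eicosanoids, and a smaller group makes bile acids, steroid hormones and active vitamin D. Hepatocytes usually lose much of this programme when they grow in culture or as tumours.

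The question put to the arrays was which of these genes gave a measurable signal in the hepatoma cells and which differed between vectors. A level is given as the processed signal, a linear fluorescence intensity in arbitrary units before scaling between arrays. A difference is the log2 signal on one array minus that on another, after each array was centred on its 75th percentile. With 1 array per vector, no spread between cultures was measured, no test was run, and a difference describes these arrays only. The model error printed after ± is that of the scanner software for a pair of spots and leaves out differences between cultures. Signals of different probes are not on a common scale of transcript amount, so levels are compared for the same probe across arrays.

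Of the 98 members, 42 (42.9%) passed the software's own flag for a signal well above background on 1 or more arrays, and are called detected here, and 36 (36.7%) passed it on all 3. Over all named genes, 15813 of 24896 (63.5%) were detected and 58.2% passed on all 3. By array, 38 members passed with Cd74, 39 with Tmem54 and 40 with Empty. The other 56 members were not well above background on any array, and the highest signal among them was 15.5, for Cyp26b1. The detected members just inside that limit were Cyp4a12b, with a highest signal of 17.5, Cyp2j9, with 18.2, and Cyp2e1, with 18.8. Just outside it, after Cyp26b1 lay Cyp26c1, with 14.4, and Cyp3a11, with 14.1. Most detected members were dim: 23 of the 42 chosen probes lay below a signal of 100 with Cd74, and 24 did so with Tmem54 and with Empty.

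A few probes carry the points on which the results turn, and their sequences from the array design are shown here 5′ to 3′. The 2 detected Cyp2u1 probes show a repeat beside a unique stretch, the 2 Cyp2d40 probes differed most within a gene, and the Cyp17a1 probe reads the steroidogenic enzyme that was detected above the 75th percentile of each array. Capitals mark the GT repeat of the first sequence, which is printed from base 12 to base 41 of its 60 bases. Coordinates are those of build mm9 in the array files, and the mean of a probe is that of its log2 values over the arrays.
Cyp2u1 repeat probe, chr3:130996343-130996402, minus strand, 30 bases: gGTGTGTGTGTGTGTGTGTGTGTGTGTGTG
Cyp2u1 other probe, chr3:130997965-130998356, minus strand: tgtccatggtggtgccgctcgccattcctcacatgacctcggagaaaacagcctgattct
Cyp2d40 brighter probe by mean, chr15:82590288-82590347, minus strand: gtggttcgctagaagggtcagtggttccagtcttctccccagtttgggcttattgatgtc
Cyp2d40 other probe, chr15:82590878-82590937, minus strand: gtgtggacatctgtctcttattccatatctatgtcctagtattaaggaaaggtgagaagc
Cyp17a1 probe, chr19:46742594-46743207, minus strand: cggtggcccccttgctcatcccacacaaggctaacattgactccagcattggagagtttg

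The Cyp17a1 interval spans 614 bases and that of the other Cyp2u1 probe 392 bases for a probe of 60 bases, so both probes join parts that lie apart in the genome. The exon, intron or UTR position of the probes was not looked up, because no annotation of this build was used here.

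The Cyp2u1 repeat probe holds a GT run of 32 bases, while the next longest run among the chosen probes of the members had 10 bases, in Cyp4x1. Cyp2u1 is a fatty acid hydroxylase. This probe read 127358 with Cd74, 137436 with Tmem54 and 130640 with Empty, and differed by at most 0.06 on the log2 scale between any pair of arrays. The other detected Cyp2u1 probe read 47.9, 48.8 and 64.2 in the same order, with a difference of -0.36 for Cd74 against Empty and -0.41 for Tmem54 against Empty. The array carries 47 other probes with a GT run of at least 20 bases, named for 43 other genes, and all 47 lay above the median of the probes well above background on each array. Their median signal was 76459 with Cd74, 79326 with Tmem54 and 76917 with Empty, and their range with Empty was 12346 to 197763. Their differences for Cd74 against Empty ran from -0.05 to 0.17, a narrow range that holds the value of the Cyp2u1 repeat probe (0.03). The level of the repeat probe is therefore not given here as a level of Cyp2u1. What binds to it was not tested.

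**Figure D1:**
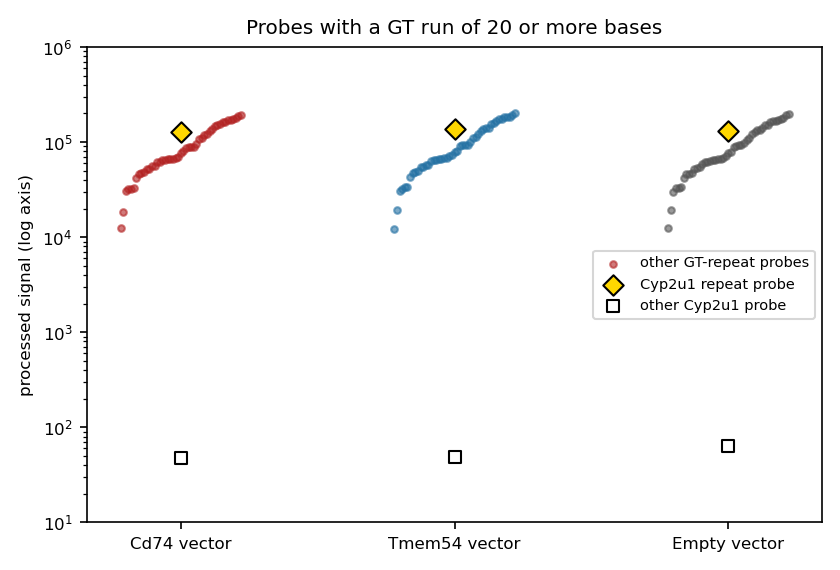
Processed signal on a log axis of probes with a GT run of at least 20 bases, for the Cd74, Tmem54 and Empty arrays. Small points are the 47 probes of other names, sorted by signal within an array, the diamond is the Cyp2u1 repeat probe (127358, 137436 and 130640) and the square is the other Cyp2u1 probe (47.9, 48.8 and 64.2), which lies far below all of them.

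Few members reached a 2-fold difference between vectors, each of which is described under its role. For Cd74 against Empty, 1 of the 41 members compared did so (Cyp2c44, higher), where 2.44% of the 15645 genes compared reached 2-fold in either direction, 1.03% higher and 1.41% lower. For Tmem54 against Empty it was 1 of 41 (Cyp4b1, higher), where the share of all 15535 genes was 1.34%, with 0.521% higher and 0.818% lower. For Cd74 against Tmem54 it was 2 of 41 (Cyp2s1 and Cyp4b1, both lower in Cd74), where the share of all 15436 genes was 3.33%, with 1.64% higher and 1.69% lower. A count of 1 or 2 in 41 is near these shares and does not set the P450 genes apart. Both comparisons with Empty use the same Empty array, and the third uses the same Cd74 and Tmem54 arrays.

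Among the enzymes of bile acid and sterol breakdown, 4 of 6 were well above background, and Cyp7a1, the rate-limiting enzyme of the classical bile acid pathway, and Cyp8b1, which sets the share of cholic acid, were not. Cyp7b1, the oxysterol hydroxylase of the alternative pathway, read 579 with Cd74, 620 with Tmem54 and 610 with Empty. Its differences were -0.01 ± 0.20 for Cd74 against Empty and 0.01 ± 0.20 for Tmem54 against Empty, and its other probe gave -0.21 and -0.17. Cyp7b1 thus read nearly the same with each vector on its brighter probe.

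Cyp39a1, which hydroxylates oxysterols, read 224 with Cd74, 352 with Tmem54 and 330 with Empty. It was the lowest of the 4 with Cd74, at -0.50 ± 0.21 against Empty and -0.58 ± 0.21 against Tmem54, below the 2-fold limit in both. Tmem54 differed from Empty by 0.08 ± 0.20. Cyp27a1, the mitochondrial sterol hydroxylase, read 155 with Cd74, 137 with Tmem54 and 141 with Empty, and differed from Empty by 0.20 ± 0.21 with Cd74 and by -0.06 ± 0.21 with Tmem54. Cyp46a1, the cholesterol hydroxylase best known from neurons, read 121, 132 and 131 in the same order, and all its differences were within 0.06. The median difference of the 4 was -0.03 for Cd74 against Empty and 0.00 for Tmem54 against Empty.

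The steroidogenic enzymes were represented by Cyp17a1 and Cyp21a1, 2 of 6. Cyp11a1, which starts steroid synthesis from cholesterol, Cyp11b1 and Cyp11b2, which finish the adrenal hormones, and Cyp19a1, the aromatase, were not well above background. Cyp17a1, the hydroxylase and lyase that leads to androgens and is also present in the livers of mice, read 2545 with Cd74, 2885 with Tmem54 and 2876 with Empty. Its differences were -0.11 ± 0.20 for Cd74 against Empty and -0.01 ± 0.20 for Tmem54 against Empty, both smaller than their model error.

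Cyp21a1, the steroid hydroxylase of glucocorticoid and mineralocorticoid synthesis, read 251 with Cd74, 358 with Tmem54 and 308 with Empty. Cd74 was lower than Empty by a difference of -0.23 ± 0.21, Tmem54 differed from Empty by 0.21 ± 0.20, and Cd74 from Tmem54 by -0.44 ± 0.21. Its other probe read 18.5, 30.6 and 23.8 and ordered the arrays in the same way, at -0.30, 0.35 and -0.65.

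Of the vitamin D enzymes, 2 of 3 were detected, and Cyp24a1, which breaks the hormone down and is one of its classical target genes, was not. Cyp2r1, which carries out the first activating hydroxylation in the liver, read 411 with Cd74, 426 with Tmem54 and 451 with Empty. It differed by -0.07 ± 0.20 for Cd74 against Empty and by -0.09 ± 0.20 for Tmem54 against Empty. Cyp27b1, which makes the active hormone and is best known from kidney, was dim at 28.7 with Cd74, 16.4 with Tmem54 and 22.6 with Empty. Its differences were 0.41 ± 0.31 for Cd74 against Empty, -0.48 ± 0.39 for Tmem54 against Empty and 0.89 ± 0.37 for Cd74 against Tmem54. None of the 3 enzymes that clear retinoic acid, Cyp26a1, Cyp26b1 and Cyp26c1, was well above background (0 of 3).

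Members of families 2 and 3, the families of most drug-metabolising P450 enzymes, made up 55 of the 98 without Cyp2r1 and suffixed names, and 21 of them were detected. They were taken by family and not by substrate. None of the 4 Cyp2a genes, a subfamily of mouse liver and nose, was detected (0 of 4). Cyp2b showed 1 of 5 genes, Cyp3a 2 of 8, Cyp2d 3 of 10 and Cyp2c 6 of 16, while Cyp2j showed 4 of 6. The undetected genes include Cyp2b10 and Cyp3a11, the classical targets of the receptors CAR and PXR, and also Cyp2c29, Cyp2d9, Cyp2d10, Cyp2d22, Cyp2f2 and Cyp2j5. The remaining undetected genes of the 2 families were Cyp2a12, Cyp2a22, Cyp2a4, Cyp2a5, Cyp2ab1, Cyp2b13, Cyp2b23, Cyp2b9, Cyp2c39, Cyp2c40, Cyp2c50, Cyp2c65, Cyp2c66, Cyp2c67, Cyp2c68, Cyp2c69, Cyp2d12, Cyp2d13, Cyp2d34, Cyp2g1, Cyp2j11, Cyp3a16, Cyp3a25, Cyp3a44, Cyp3a57 and Cyp3a59.

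Cyp2s1, an enzyme described mainly outside the liver and inducible by dioxin, was a bright member whose signal differed by 2-fold. It read 983 with Cd74, 2296 with Tmem54 and 1746 with Empty, so Cd74 was the lowest and Tmem54 the highest. Cd74 was 2.21-fold lower than Tmem54 (-1.15 ± 0.20) and 1.70-fold lower than Empty (-0.76 ± 0.20), and Tmem54 was above Empty by 0.38 ± 0.20. The probe lies at chr7:26587495-26587554, minus strand, and the gene's other probe gave no detected signal.

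Cyp2c44, an arachidonic acid epoxygenase that the reference table names Cyp2c23, was the member that reached 2-fold for Cd74 against Empty. It read 35.5 with Cd74, 18.9 with Tmem54 and 15.7 with Empty. Cd74 was 2.37-fold higher than Empty (1.24 ± 0.35) and 1.98-fold higher than Tmem54 (0.98 ± 0.33). Both lower signals are close to the dimmest signals called well above background on those arrays, 13.9 and 13.1. With a different background correction (normexp), which also adds an offset of 50 to every signal, the difference from Empty was 0.39. The offset by itself shrinks differences of dim probes. The probe lies at chr19:44079535-44079594, minus strand.

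Cyp3a13, a Cyp3a enzyme found in liver and gut, lay just under 2-fold. It read 64.1 with Cd74, 33.9 with Tmem54 and 66.8 with Empty, so the Tmem54 array stood below both others. Tmem54 was 1.99-fold lower than Empty (-0.99 ± 0.26), Cd74 was above Tmem54 by a difference of 0.997, and Cd74 and Empty differed by 0.01 ± 0.23. Cyp2c54, another epoxygenase, read 25.0 with Cd74 and was not well above background with Tmem54 (3.02) or with Empty (2.79). Against the dimmest signal called well above background, Cd74 was at least 1.996-fold higher than Empty and at least 1.89-fold higher than Tmem54.

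Cyp2d40 depended on the probe. Its probe with the higher mean of log2 values, which is not the one with the higher mean of linear signals, was the chosen one. It read 18.4 with Cd74, 23.3 with Tmem54 and 21.9 with Empty, a difference of -0.19 ± 0.35 for Cd74 against Empty. Its other probe read 85.7 with Cd74 and was not well above background with Tmem54 (3.21) or with Empty (2.94). On that probe Cd74 was at least 6.85-fold higher than Empty and at least 6.49-fold higher than Tmem54. Both probes carry the name Cyp2d40 and lie on the same strand of chromosome 15, and their transcripts in the array design were not compared here.

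The other Cyp2c genes were Cyp2c37, Cyp2c38, Cyp2c55 and Cyp2c70. Cyp2c37 read 24.2 with Cd74, 30.3 with Tmem54 and 41.7 with Empty, with a difference of -0.72 ± 0.31 for Cd74 against Empty and -0.48 ± 0.29 for Tmem54 against Empty. Its probe carries an accession of Cyp2c50 as well, so this probe does not tell the pair apart, and the 2 probes named Cyp2c50 were undetected, with a highest signal of 8.67. Cyp2c38 read 196, 181 and 173 in the same order of arrays (0.25 for Cd74 against Empty), and Cyp2c55 and Cyp2c70 read between 29.2 and 41.6 with differences within 0.22. Of the 6 Cyp2c genes, 5 lay above 0 for Cd74 against Empty, with a median of 0.18, and 2 of the 5 compared lay above 0 for Tmem54 against Empty, with a median of -0.10. Over all genes, 8183 of 15645 and 7612 of 15535 lay above 0 in these 2 comparisons.

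The 3 Cyp2j members that could be compared lay above Empty with Cd74, as 8183 of all 15645 genes did, by 0.28 for Cyp2j8, 0.34 for Cyp2j13 and 0.38 for Cyp2j6. These genes encode epoxygenases of polyunsaturated fatty acids. Cyp2j6 read 116 with Cd74, 95.4 with Tmem54 and 93.7 with Empty, and Cyp2j8 read 126, 111 and 109. Tmem54 differed from Empty by 0.01 in both. Cyp2j13 read 27.8, 19.6 and 23.0, and its probe carries an accession of Cyp2j12 too. Cyp2j9 was well above background with Tmem54 alone, at 18.2. A probe described as Cyp2j7, which has no symbol on the array and is no member, read 47.0 with Cd74, 46.02 with Tmem54 and 52.4 with Empty and lay below Empty with Cd74, at -0.09.

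The remaining detected genes of families 2 and 3 were close together across the arrays or near the background. Cyp2e1, the ethanol-inducible enzyme abundant around the central vein in mouse liver, read 18.8 with Cd74, 15.5 with Tmem54 and 17.7 with Empty. Cyp2d11 read 180, 196 and 181, and Cyp2d26 read 54.3, 46.5 and 43.9, with 0.37 for Cd74 against Empty on this probe and -0.26 on its other one. Cyp2w1, known from fetal gut and colon tumours, read 40.6, 43.7 and 43.8, and Cyp2t4 read 23.8, 21.98 and 18.5. Cyp2b19 was well above background with Cd74 (16.5) and Empty (18.8) and not with Tmem54 (11.1). Cyp3a41a passed with Tmem54 (23.1) and Empty (20.04) and not with Cd74 (12.8), and its probe carries an accession of the near-identical Cyp3a41b.

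Of the 19 fatty acid hydroxylases of family 4, 11 were detected, and Cyp4a12a, Cyp4a29, Cyp4a30b, Cyp4f14, Cyp4f15, Cyp4f37, Cyp4f39 and Cyp4f40 were not. Cyp4b1, known in lung and kidney for activating furan toxins, was the member that reached 2-fold for Tmem54 against Empty. It read 8.38 with Cd74, where it was not well above background, 51.3 with Tmem54 and 21.8 with Empty. Tmem54 was 2.34-fold higher than Empty (1.22 ± 0.29), and Cd74 was at least 3.605-fold lower than Tmem54 and at least 1.54-fold lower than Empty. With the normexp correction and its offset of 50 the differences were 0.47 for Tmem54 against Empty and -0.62 for Cd74 against Tmem54, both under 2-fold. The probe lies at chr4:115297406-115297465, minus strand.

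Among the Cyp4f genes and Cyp4v3, none reached 2-fold. Cyp4f13 read 732 with Cd74, 504 with Tmem54 and 541 with Empty, and Cd74 was 1.42-fold higher than Empty (0.50 ± 0.20). Cyp4f17 read 461, 319 and 341, again 1.42-fold higher with Cd74 (0.50 ± 0.20). Cyp4v3, the mouse counterpart of the human fatty acid hydroxylase CYP4V2, read 402, 309 and 319, or 1.32-fold higher with Cd74 (0.40 ± 0.20). In each of these 3 genes the Tmem54 array lay within 0.12 of Empty and Cd74 stood above both, at 0.62, 0.61 and 0.46 against Tmem54.

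Cyp4f16 read 593 with Cd74, 544 with Tmem54 and 556 with Empty, a difference of 0.16 ± 0.20 for Cd74 against Empty. Cyp4f18, which inactivates leukotriene B4 in mouse neutrophils, read 101, 132 and 117 and lay on the other side, at -0.16 ± 0.21 for Cd74 against Empty. Of the 5 Cyp4f genes, Cyp4f41-ps among them, 4 were above 0 for Cd74 against Empty (median 0.16) and 2 for Tmem54 against Empty (median -0.04). Over all genes, 8183 of 15645 and 7612 of 15535 were above 0 in these 2 comparisons. The other Cyp4f13 probe read 19.0 with Cd74 and did not pass the flag with Tmem54 or Empty, and the other Cyp4f16 probe gave 0.02 for Cd74 against Empty.

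The Cyp4a genes, classical targets of the fatty acid receptor PPAR-alpha in mouse liver, were all dim. Cyp4a10 read 17.1 with Cd74, 24.04 with Tmem54 and 17.7 with Empty, and its probe carries an accession of Cyp4a32 too. Cyp4a14 read 25.0, 22.4 and 33.0 (-0.34 ± 0.30 for Cd74 against Empty and -0.57 ± 0.32 for Tmem54 against Empty), and Cyp4a31 read 35.1, 25.98 and 33.0. Cyp4a12b was well above background with Empty alone, at 17.5. Cyp4x1 read between 53.4 and 57.1 on the arrays. Cyp20a1, an orphan enzyme of the endoplasmic reticulum, read 699 with Cd74, 611 with Tmem54 and 676 with Empty, with differences of 0.11 ± 0.20 for Cd74 against Empty and -0.16 ± 0.20 for Tmem54 against Empty. Of the 5 members whose names mark a pseudogene or an antisense transcript, Cyp4f41-ps was detected, between 30.9 and 35.1, and the probes named Cyp2c53-ps, Cyp2d37-ps, Cyp4b1-ps2 and Cyp4x1os were not. Another probe, described as the Cyp2d37 pseudogene but carrying no such name, was well above background on all 3 arrays, at 94.1 with Cd74, 103 with Tmem54 and 95.9 with Empty, so the call for Cyp2d37-ps holds for its named probe only.

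**Figure D2:**
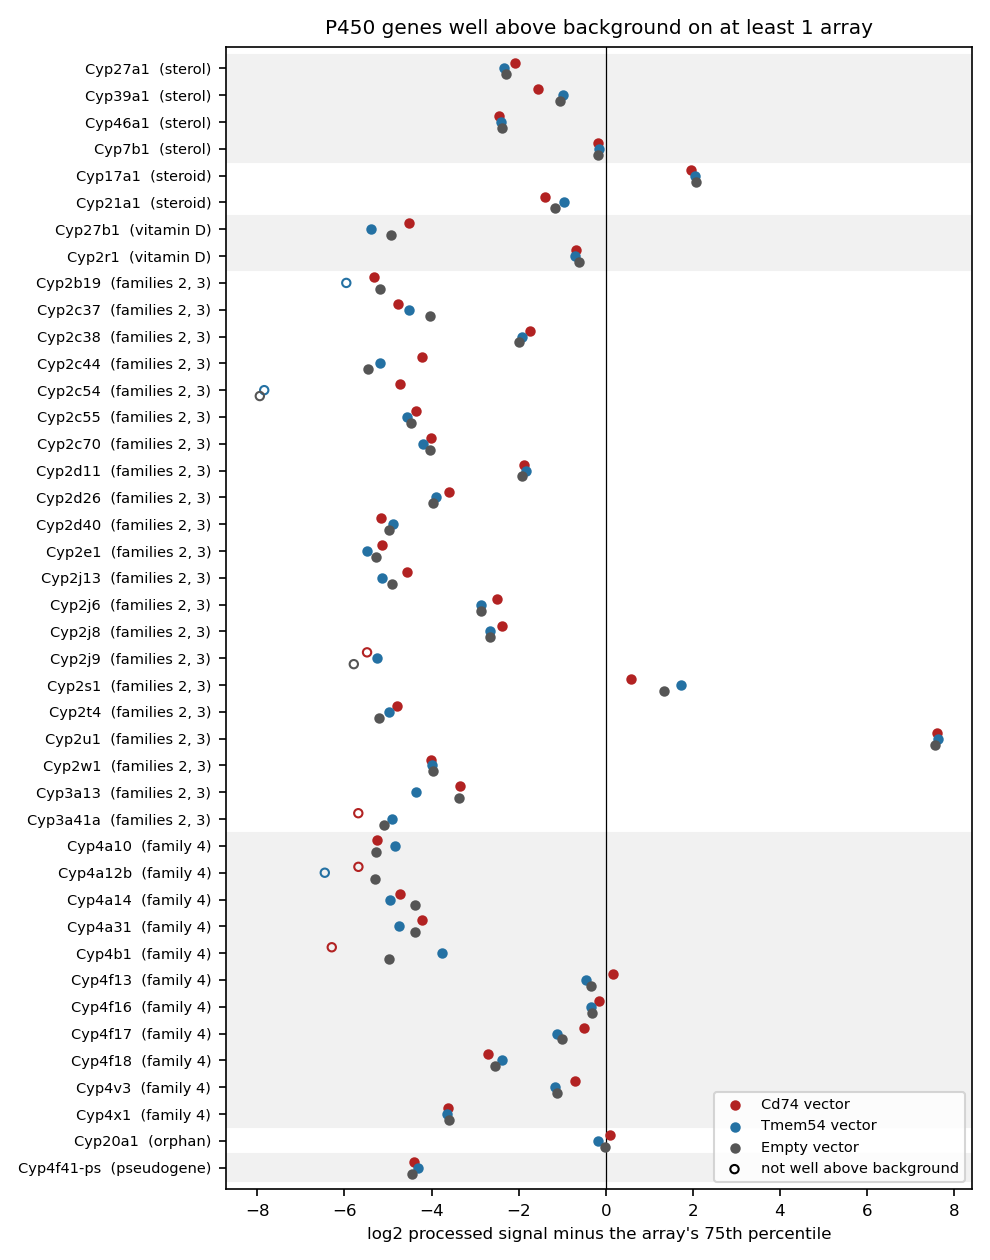
Level of the 42 detected members by role, on a log2 scale centred on each array's 75th percentile, for the Cd74 (red), Tmem54 (blue) and Empty (grey) arrays from top to bottom within a gene. Open circles are signals not well above background, and Cyp2u1 is drawn at its GT repeat probe. Without it, 4 members with Cd74 lie above the 75th percentile, against 2 with Tmem54 and 2 with Empty.

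The median difference of the members was 0.03 for Cd74 against Empty, beside 0.01 over all genes, with 24 of 41 above 0. It was -0.01 for Tmem54 against Empty, beside -0.003 over all genes, with 19 of 41 above 0. For Cd74 against Tmem54 it was 0.19, beside 0.03 over all genes, with 24 of 41 above 0, and 0.0028 over the 12 members whose brighter signal was at or above the median of detected probes. Over all genes compared, 8183 of 15645, 7612 of 15535 and 8400 of 15436 lay above 0 in the 3 comparisons, in the same order. Among members with a measured difference, 32 of 37 lay within 0.5 for Cd74 against Empty, 35 of 38 for Tmem54 against Empty and 27 of 36 for Cd74 against Tmem54. Their median model error was 0.21, 0.23 and 0.21 for the 3 comparisons, and 21 of 37, 29 of 38 and 18 of 36 differences were no larger than their own model error. By role, the detected genes of families 2 and 3 had a median of 0.09 for Cd74 against Empty and 0.04 for Tmem54 against Empty, and those of family 4 had 0.02 and -0.06.

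**Figure D3:**
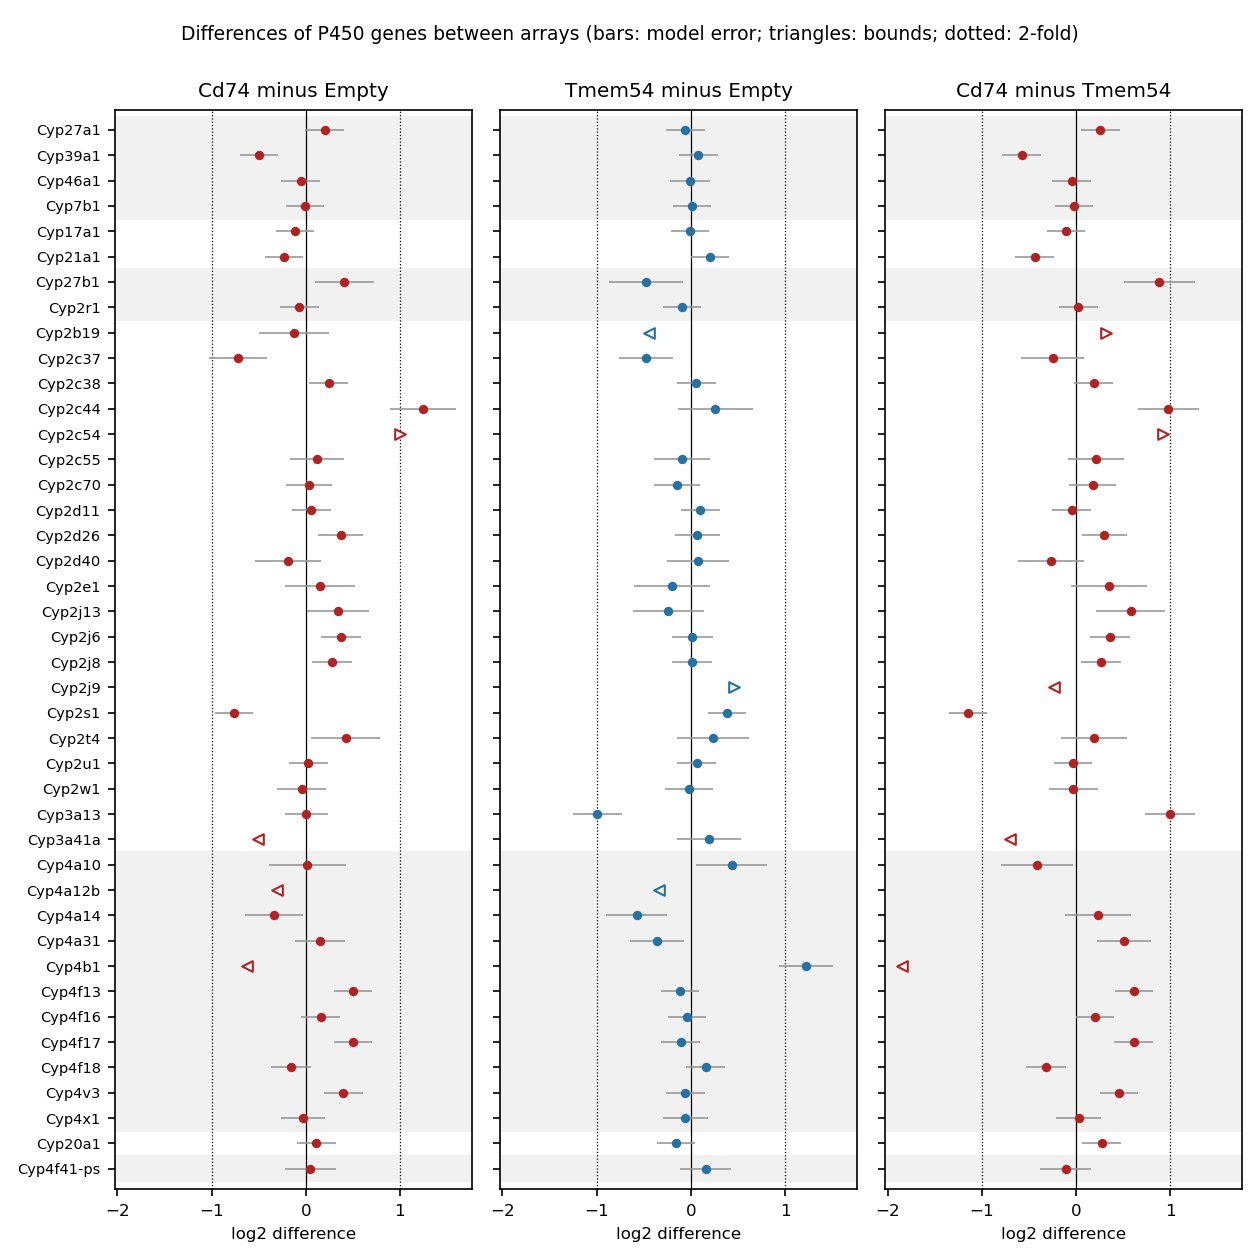
Log2 difference of each detected member for Cd74 minus Empty, Tmem54 minus Empty and Cd74 minus Tmem54, with the model error of the spots as bars. Triangles are bounds where 1 array was not well above background and dotted lines mark 2-fold, reached by Cyp2c44 (1.24), by Cyp4b1 (1.22) and by Cyp2s1 (-1.15) and Cyp4b1 (bound of -1.85) in the 3 panels.

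A check within genes was possible for the 10 detected members with 2 detected probes. For Cyp20a1, Cyp21a1, Cyp4f16 and Cyp4f18 the 2 probes lay within 0.15 of each other for Cd74 against Empty. The 2 Cyp4f18 probes cover nearly the same stretch, chr8:74512382-74512441 and chr8:74512381-74512440, so they are no check by a separate sequence. For Tmem54 against Empty that pair gave 0.16 and -0.06. The probes lay on opposite sides of 0 in 3 of the 9 pairs compared for Cd74 against Empty (Cyp2d26, Cyp2d40 and Cyp2u1). They did so in 5 of 8 pairs for Tmem54 against Empty (Cyp2c55, Cyp2d26, Cyp2u1, Cyp4f18 and Cyp7b1) and in 3 of 10 for Cd74 against Tmem54 (Cyp2c55, Cyp2d40 and Cyp2u1). Of the chosen probes, 1 of 42 shares a run of 20 bases with probes of other gene names, the Cyp2u1 repeat probe. The probes of Cyp2c37, Cyp2j13, Cyp3a41a and Cyp4a10 carry accessions of another P450 gene, and members of these close-knit subfamilies are uncertain to that extent.

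**Figure D4:**
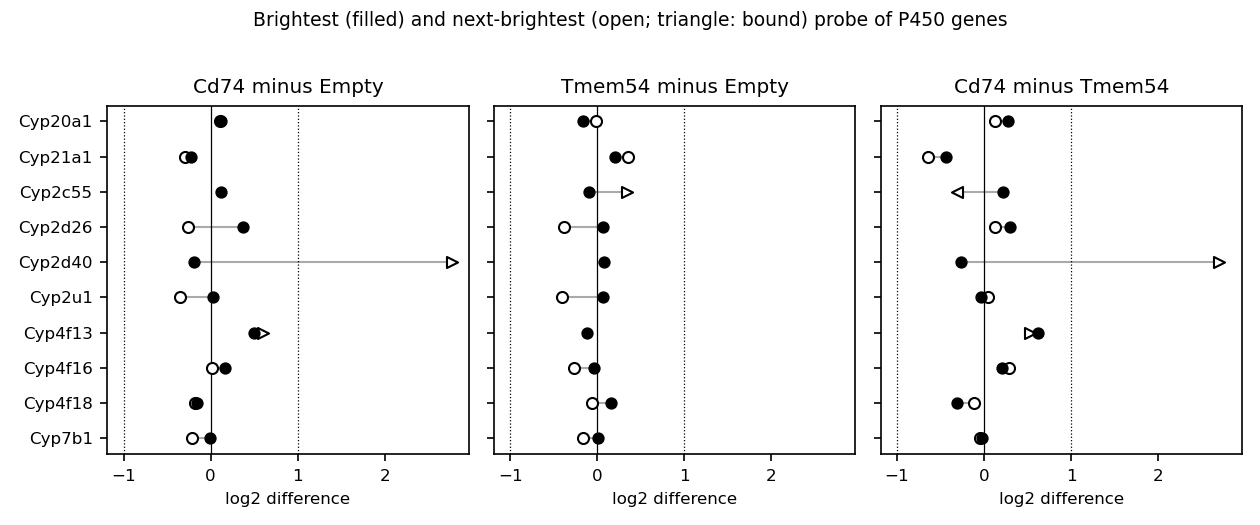
Log2 differences on the brightest probe (filled) and the next-brightest probe (open) of the 10 members with 2 detected probes, for Cd74 minus Empty, Tmem54 minus Empty and Cd74 minus Tmem54. Triangles are bounds, and the Cyp2d40 pair is the widest, at -0.19 against a bound of 2.78 for Cd74 minus Empty.

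The partners of P450 enzymes were all present. All 15 genes for electron transfer and haem synthesis were well above background, and none reached 2-fold in any comparison. Their median difference was -0.14 for Cd74 against Empty and 0.00 for Tmem54 against Empty, with 5 of 15 and 9 of 15 above 0. Over all genes, 8183 of 15645 and 7612 of 15535 were above 0. Alas1, the rate-limiting enzyme of haem synthesis in liver, read 6504 with Cd74, 4197 with Tmem54 and 4803 with Empty, a difference of 0.50 for Cd74 against Empty and 0.71 for Cd74 against Tmem54. Uros, a later enzyme of the same pathway, read 2396 with Cd74, 1832 with Tmem54 and 1851 with Empty, or 0.44 for Cd74 against Empty. Cyb5r3, the reductase of cytochrome b5, read 21693, 34900 and 30837 and lay lower with Cd74, at -0.44 against Empty and -0.61 against Tmem54. Alad, which acts second in haem synthesis, read 47357, 67400 and 61145, or -0.30 for Cd74 against Empty. These 4 had the largest differences of the list.

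Of 15 nuclear receptors and liver factors known to regulate P450 genes, 9 were detected. Nr1i2 (PXR), Ppara, Nr0b2, Nr5a2, Hnf4a and Cebpa were not well above background on any array. None of the 9 reached 2-fold on its chosen probe, and the median difference was -0.10 for Cd74 against Empty and 0.01 for Tmem54 against Empty. Esr1, the estrogen receptor, read 147 with Cd74, 270 with Tmem54 and 204 with Empty, a difference of -0.80 for Cd74 against Tmem54. Nr1h4 (FXR), the bile acid receptor, read 235, 402 and 402, or -0.71 for Cd74 against Empty. Nr1i3 (CAR), the drug-sensing receptor behind Cyp2b10, read 36.3, 25.8 and 25.9, or 0.55 for Cd74 against Empty. On a second Nr1i3 probe, named after its values were seen, Cd74 read 172, Tmem54 16.01 and Empty 2.77, which was not well above background, so Cd74 was at least 13.7-fold higher than Empty.

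The P450 genes left outside gave a comparison for the members. Cyp1a1, the dioxin-inducible enzyme for which this line is much used, read 2005 with Cd74, 1800 with Tmem54 and 1529 with Empty, a difference of 0.46 for Cd74 against Empty. Cyp51, which acts in cholesterol synthesis, read 1273, 2243 and 2059, or -0.63 for Cd74 against Empty and -0.74 for Cd74 against Tmem54. Ptgis, the prostacyclin synthase, read 212, 254 and 259, and Cyp1b1 read 33.0, 23.4 and 30.01. Cyp1a2 and Tbxas1 were not well above background, and none of the 4 detected genes reached 2-fold.

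The transfected genes followed the labels. Cd74 read 10856 on the Cd74 array, 22.4 with Tmem54 and 26.8 with Empty, and Tmem54 read 19747 on the Tmem54 array and was not well above background with Cd74 (2.83) or Empty (2.78). Between 55.7% and 57.2% of the spots other than controls were well above background, none was saturated (0), and the 75th percentile of the processed signal was 656 with Cd74, 693 with Tmem54 and 687 with Empty. Of 12 hepatocyte markers, 7 were detected, with a summed signal of 153540 with Cd74, 157665 with Tmem54 and 146461 with Empty. Sums of different probes follow the brightest one, here Rbp4, and the median difference of the 7 was -0.20 for Cd74 against Empty, with 4 of 7 below 0. Ttr, Apoa1, Apob, Fgb and Ahsg were not detected, and Alb, the albumin gene, was lower with Cd74 by a difference of -0.87 against Empty and -1.70 against Tmem54. Among markers of other liver cells, 4 of 5 for cholangiocytes (20220, 24919 and 22308 in sum), 6 of 6 for fibroblasts and stellate cells (81374, 69311 and 77642), 5 of 7 for macrophages and B cells (8723, 9532 and 9668) and 2 of 4 for endothelium (106, 125 and 137) were detected. Epcam, Adgre1, Cd79a, Cdh5 and Kdr were not. The fibroblast sum follows Dcn, while 5 of the 6 markers were lower with Cd74 than with Empty, with a median of -0.28, and 5 of 6 were lower than with Tmem54, with a median of -0.51. In the comparison with Tmem54, Col1a1 and Col3a1 were at least 2-fold lower with Cd74, both at -1.08. All cells belong to the same line, so a detected marker is not read here as the presence of another liver cell type. The part of these markers in the P450 differences was not tested. In RNA of whole cultures, fewer cells that express a gene and less RNA per cell cannot be told apart.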

How the data were processed

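Each of 3 arrays (1 per vector) holds 62976 spots, 59305 of them not controls. The deposited intensity is the processed signal of Agilent Feature Extraction 12.0.3.1, per the file headers and the submitters' processing notes, whose error model takes a multiplicative error of 0.1. The deposited flag columns mark spots well above background, per the file headers. The series value table, a linear signal, is the authors' processed signal over a single constant for each array (559.8 for Cd74, 580.7 for Tmem54, 580.3 for Empty), so it is uncentred, with column medians of 0.0393, 0.0390 and 0.0409.

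From these, control spots and outlier spots (119 to 135 per array) were left out, replicate spots averaged, and log2 signals centred on the 75th percentile of each array. A gene took its probe with the highest mean of log2 values over the 3 arrays, among those that passed the flag on 1 or more arrays. Readings not well above background entered that mean. Where 1 array was dim, its value was the higher of the lowest signal well above background (13.5 for Cd74, 13.9 for Tmem54, 13.1 for Empty) and its own, and the difference is a bound. A call is at least 2-fold. No test was run. The number of arrays limits the precision. Replicate spots (300 probes printed 10 times) had a median SD of 0.042 log2 for Cd74, 0.041 for Tmem54 and 0.040 for Empty.

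The members and gene lists were chosen with earlier results of these data known. Full values are given for members at 2-fold in any comparison, for the 12 with the highest mean and for the sterol, steroid, vitamin D and retinoic acid lists, and from the other lists for the 4 largest differences, of which 1 is not reported here. A table of RefSeq genes (GRCm38.p6) held 97 of the 98 names and matched all 98 by accession. Python 3.11.15, numpy 2.4.6, pandas 2.3.3 and, for the normexp correction (offset 50), limma 3.58.1 in R 4.3.3 were used. The steps were tested on simulated data, with changes planted only in genes picked for a bright signal and with noise smaller than the model error. Changes in dim probes and bounds were not part of that test. Alternatives covered background correction, scaling, dim probes, the probe per gene and membership.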

Additional observations from a re-analysis of the deposited data

Results flagged for a closer look

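The Cyp2d40 probe that was not chosen for the gene stood out as a signal outside the main values: with Cd74 it lay at least 2.78 above Empty on the log2 scale. It read 85.7 with Cd74 and was not well above background with Tmem54 or Empty, while the chosen probe read 18.4, 23.3 and 21.9. The cause was not tested.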

How the results depend on the processing

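No paired analysis was possible because each vector has 1 array and no test was run. Centring on the median of detected probes and the deposited value table kept all counts of members at 2-fold (1 for Cd74 against Empty, 1 for Tmem54 against Empty, 2 for Cd74 against Tmem54). They moved 0 of 123 named differences beyond the model error. Each differs from the main scaling by a single constant per array, a small shift shared by all genes. Their result is therefore no separate check of the calls. The normexp correction, whose added offset of 50 by itself shrinks differences of dim probes, moved 16 of 122. Its 1 member for Cd74 against Empty was Cyp2d40 (a bound of 1.22) in place of Cyp2c44, and its 2 for Cd74 against Tmem54 were Cyp2d40, higher (a bound of 1.14), and Cyp2s1, lower, in place of Cyp2s1 and Cyp4b1. It left 0 members for Tmem54 against Empty, and over all genes 58 higher and 61 lower for Cd74 against Empty (161 and 220 otherwise), 32 and 34 for Tmem54 against Empty (81 and 127) and 94 and 102 for Cd74 against Tmem54 (253 and 261). Probes well above background on both arrays gave 1 member for Cd74 against Tmem54, Cyp2s1. Keeping genes with a brighter signal at or above the median of detected probes gave 0 for Cd74 against Empty, 0 for Tmem54 against Empty and 1 for Cd74 against Tmem54, again Cyp2s1. The mean of all detected probes moved 9 of 123 and gave 2 for Cd74 against Empty (Cyp2c44 and Cyp2d40) and 4 for Cd74 against Tmem54 (Cyp2d40, Cyp2s1, Cyp4b1 and Cyp4f13). In this setting readings not well above background entered the mean as they were, without the limit used for bounds. Neither Cyp4f13 probe reached 2-fold by itself for Cd74 against Tmem54, at 0.62 and a bound of 0.52. The next-brightest probe, over 8 to 10 members, moved 11 of 27 named differences. It gave 0 for Tmem54 against Empty, 1 for Cd74 against Tmem54 (Cyp2d40) and a median of -0.181 for Cd74 against Empty. On that probe Cyp2d40 also passed 2-fold for Cd74 against Empty, at a bound of 2.78. The probe with the highest signal on any 1 array, chosen after seeing the data, gave 2 for Cd74 against Empty. Leaving out the repeat probe, also chosen after seeing the data, changed no count. Requiring detection on all 3 arrays left 36 of 98 members, and leaving out suffixed names left 41 of 93. Apart from the next-brightest probe, the median for Cd74 against Empty stayed between 0.0201 and 0.0761. For Cd74 against Tmem54 it ran from 0.00282 in the bright genes to 0.191. Dim probes set the limits: Cyp2c44 and Cyp4b1 lay close to the background, and their calls were lost with the normexp setting. The background estimate and the offset of that setting were not tested apart, so the loss cannot be credited to either. Cyp2s1 kept a difference between -1.17 and -1.11 for Cd74 against Tmem54 under the alternatives that used its detected probe.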

Other observations

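Another 6 probes carry no P450 symbol on the array and were named through their descriptions, 2 of them for the pseudogenes Cyp2d37 and Cyp4f41, which also have named probes among the members. The Cyp2a21 pseudogene read 36.4 with Cd74, 17.3 with Tmem54 and 27.6 with Empty, so Cd74 was above Tmem54 by 1.15 on the log2 scale and above Empty by 0.46. The probes described as Cyp2j7 and as the Cyp2d37 pseudogene are given with the members. The other 3, the Cyp4f41 probe among them, were not well above background on any array.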
